A study of Rattus norvegicus with 31 samples.

Results

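The glutathione transferases, glutathione peroxidases, peroxiredoxins and superoxide dismutases were described in rat kidney cortex and colon. They were taken as every gene of the count table whose symbol starts with Gsta, Gstk, Gstm, Gsto, Gstp, Gstt, Gstz, Mgst, Gpx, Prdx or Sod followed by a digit. That rule gave 43 of 20207 genes: 23 soluble glutathione transferases, 3 microsomal transferases (Mgst), 8 glutathione peroxidases (Gpx), 6 peroxiredoxins (Prdx) and 3 superoxide dismutases (Sod). The rats (Rattus norvegicus) were in 3 groups: a high-salt diet plus calcitriol, the hormonal form of vitamin D (CAL), a high-salt model without it (HS), and a normal control (NC). RNA from kidney cortex was sequenced in 6 CAL, 4 HS and 5 NC libraries, and RNA from colon in 6 CAL, 5 HS and 5 NC libraries. Per its title, the study asked whether calcitriol limits the damage of high-salt hypertension through the gut and kidney. No genetic alteration is named in the labels. Strain, age, sex, salt and calcitriol doses and duration are not given in the sources used here. The labels do not say whether replicates are separate animals, so p-values measure only the spread between these samples.

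These enzymes handle reactive oxygen and its products. Superoxide dismutases turn superoxide into hydrogen peroxide, glutathione peroxidases and peroxiredoxins reduce peroxides with glutathione or thioredoxin, and glutathione transferases join glutathione to electrophiles, drugs and products of lipid oxidation. The kidney proximal tubule is the main source of the secreted peroxidase Gpx3 found in plasma, and Gpx2 is the peroxidase of the gut epithelium.

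The counts were shallow, with 289529 to 2265164 counts per cortex library and 267976 to 918820 per colon library. Markers of the labelled tissue were present. A list of 8 proximal tubule genes summed to between 7800 and 11800 CPM (counts scaled by library size) in the cortex libraries, and colonocyte genes to between 7760 and 18900 CPM in the colon libraries. HS replicate 3 of the colon stood apart. A list of 6 small intestine genes summed there to 38300 CPM, against 49.1 to 711 CPM in the other 15 colon libraries. Of that sum Reg3b held 33100 CPM, Apoa1 2610 CPM and Fabp2 2490 CPM, while Lct and Defa5 were at 0. The other 15 colon libraries also varied in make-up. Smooth muscle genes summed to between 1840 and 23100 CPM in them, and T or B cell genes to between 155 and 1460 CPM. HS replicate 3 is given apart below, and some colon results are also given without it. Colon results include it unless this is stated.

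The promoters of 4 genes that carry the results are shown for orientation: Gpx3, which dominates the cortex counts, Gpx2, which is the colon-rich peroxidase, Gsta6, which rose in the HS cortex, and Mgst1, which was far higher in HS replicate 3 of the colon than in any other colon library. They are RefSeq sequences of build GRCr8 and run from 250 bases before to 50 bases after the transcript start, 5′ to 3′ on the gene's strand. Capitals mark a match to the core of the antioxidant response element (TGACNNNGC), to the AP-1 motif (TGANTCA) or to TATAAA, searched on both strands. An antioxidant core with TCA in the middle also holds the AP-1 motif. Gpx3 lies at chr10:39529085-39529384 on the plus strand, Gpx2 at chr6:101229984-101230283 on the minus strand, Gsta6 at chr9:31275302-31275601 on the minus strand, and Mgst1 at chr4:172760680-172760979 on the plus strand.
Gpx3: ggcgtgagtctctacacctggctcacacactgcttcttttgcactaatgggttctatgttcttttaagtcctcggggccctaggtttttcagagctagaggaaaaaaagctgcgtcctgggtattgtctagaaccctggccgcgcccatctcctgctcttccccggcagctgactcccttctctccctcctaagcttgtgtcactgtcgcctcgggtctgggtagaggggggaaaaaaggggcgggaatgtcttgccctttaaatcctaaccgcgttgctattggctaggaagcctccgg
Gpx2: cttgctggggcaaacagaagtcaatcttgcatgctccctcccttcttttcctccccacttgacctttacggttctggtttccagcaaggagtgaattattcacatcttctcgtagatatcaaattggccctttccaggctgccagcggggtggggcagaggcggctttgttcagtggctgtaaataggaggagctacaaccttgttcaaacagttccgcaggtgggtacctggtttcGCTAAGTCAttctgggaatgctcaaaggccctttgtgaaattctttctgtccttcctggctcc
Gsta6: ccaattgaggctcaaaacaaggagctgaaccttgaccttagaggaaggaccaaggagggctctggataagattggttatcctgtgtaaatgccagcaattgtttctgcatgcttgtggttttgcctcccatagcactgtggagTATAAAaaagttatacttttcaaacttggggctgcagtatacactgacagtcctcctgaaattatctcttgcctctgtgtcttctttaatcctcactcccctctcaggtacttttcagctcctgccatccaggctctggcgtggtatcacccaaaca
Mgst1: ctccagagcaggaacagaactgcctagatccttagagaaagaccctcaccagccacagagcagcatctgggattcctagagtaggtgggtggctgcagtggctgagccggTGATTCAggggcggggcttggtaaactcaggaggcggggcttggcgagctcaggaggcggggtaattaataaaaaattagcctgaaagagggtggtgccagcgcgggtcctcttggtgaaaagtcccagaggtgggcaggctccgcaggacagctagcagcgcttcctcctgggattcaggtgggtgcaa

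The Gpx2 promoter held the antioxidant core at position -13, with 0 at the first transcribed base. The Gsta6 promoter held TATAAA at -107 and the Mgst1 promoter held the AP-1 motif at -140. The Gpx3 window held none of these letters. Promoters were found by symbol for 35 of the 43 members, 39 promoters in all. The antioxidant core was in 12 of these (30.8%), against 12.1% of all 33469 rat promoters of that length. The AP-1 motif was in 5 (12.8%), against 7.33% of all, and TATAAA in 8 (20.5%), against 14.2%. Members of 1 gene cluster share sequence, so these shares describe the promoters and are not tested. Of the 43 symbols, 9 are also listed by RefSeq as a synonym of another gene, Gsta2 among them, and its promoter is not printed for that reason.

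Members took a large part of the cortex counts. Their share of all counts was 6.5 to 8.65% in the CAL cortex, 6.19 to 7.24% in the HS cortex and 5.72 to 7.95% in the NC cortex, and 0.595 to 0.978% across the colon libraries. Most of the cortex share was Gpx3, which ranked first among all genes by count in each of the 15 cortex libraries. Its share was 5.33 ± 0.772% in CAL, 4.93 ± 0.416% in HS and 5.13 ± 0.874% in NC (SD, n = 6, 4 and 5). A share of counts depends on transcript length as well as on RNA, and gene lengths were not used here. Fold changes therefore compare each gene only with itself, and shares, ranks and ratios across genes describe counts only. The other families held less of the cortex counts: soluble transferases 0.540 to 0.869%, peroxiredoxins 0.305 to 0.398% and superoxide dismutases 0.216 to 0.276%.

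**Figure D1:**
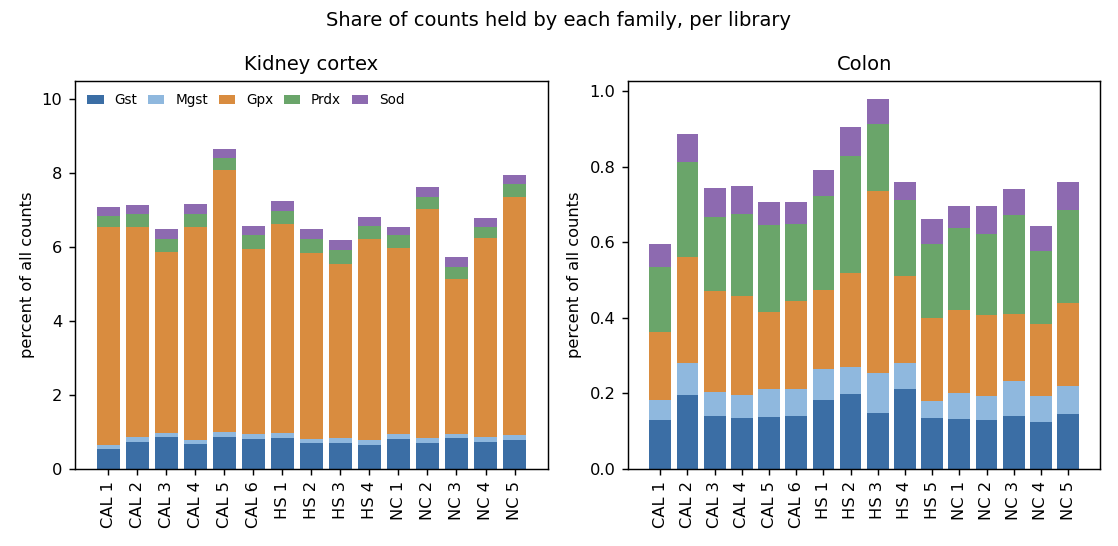
Stacked bars give the percent of all counts held by each family in each library, cortex on the left and colon on the right with different axes. Glutathione peroxidases fill most of every cortex bar because of Gpx3, and colon HS replicate 3 has the tallest colon bar at 0.978%.

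Of the 43 members, the low-count filter of edgeR kept 31 for the cortex and 27 for the colon, 26 of them for both. Gpx5, an epididymal peroxidase, Gstm3 and Gstt4 had no count in any library. Gpx6, Gsto2 and Gstm6 reached at most 3 counts in any library. Gpx4, the peroxidase of membrane lipids, had only 3 to 37 counts per cortex library and 1 to 14 per colon library. Each library's limit for a count of 0, taken as 3 counts, lay between 1.32 and 11.2 CPM, and this limit covers counting error only.

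The largest differences among members were between the tissues. In control rats, 21 of the 26 members tested in both tissues differed between cortex and colon (80.8%, against 52.5% of all 5992 genes tested). Of these, 18 were higher in the cortex (background 25.2%) and 3 were lower (background 27.3%). The median log2 fold change, cortex over colon, was 1.14 over the members and -0.04 over all genes. The filter keeps a gene only where it is counted in both tissues, so these 26 are not all members. Without colon HS replicate 3, which enters the shared estimate of spread, 27 members were tested, with 19 higher in the cortex and 3 lower. In bulk tissue, fewer cells of a type and less RNA per cell cannot be told apart.

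The cortex-rich members were led by alpha-class transferases and Gpx3. Gpx3 had 48200, 61800, 40000, 51400 and 64100 CPM in the 5 NC cortex libraries, against 400, 776, 463, 744 and 761 CPM in the 5 NC colon libraries. Every cortex library was far above every colon library, with a log2 fold change of 6.52 (SE 0.33, edgeR adjusted p = 1.04e-18), a fold of 91.5. Gsta1 had 1430, 1970, 1410, 1620 and 1870 CPM in the cortex, against 18.4, 18.9, 24.8, 14.5 and 40.1 CPM in the colon. Its log2 fold change was 6.28 (SE 0.28, edgeR adjusted p = 6.06e-20), with no overlap. The alpha class is the main group of transferases in liver and kidney tubule and also reduces lipid peroxides.

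Gsta5 was higher in the cortex by 6.55 on the log2 scale (SE 0.42, edgeR adjusted p = 7.13e-16), and Gsta4, which acts on 4-hydroxynonenal, by 4.02 (SE 0.27, edgeR adjusted p = 3.96e-15). All 3 alpha-class members tested in both tissues were thus higher in the cortex. Gstt3, a theta-class transferase, was higher by 5.73 (SE 0.39, edgeR adjusted p = 4.54e-15). Gstz1, the maleylacetoacetate isomerase of tyrosine breakdown, was higher by 4.00 (SE 0.30, edgeR adjusted p = 4.20e-14). The superoxide dismutases were higher in the cortex for all 3 members: extracellular Sod3 by 3.06, cytosolic Sod1 by 2.59 and mitochondrial Sod2 by 0.76. Other members past the threshold in that direction included microsomal Mgst1 (3.42), Gstk1 (2.41), cytosolic Gpx1 (1.88) and mitochondrial Prdx3 (1.41).

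The 3 members higher in the colon were Gpx2, Gstm1 and Prdx4. Gpx2 had 14.2, 21.2, 14.4, 65.0 and 28.4 CPM in the NC cortex, against 806, 319, 444, 358 and 513 CPM in the NC colon. All colon libraries were above all cortex libraries, and the log2 fold change was -4.03 (SE 0.63, edgeR adjusted p = 1.59e-06). The mu-class transferase Gstm1 differed by -1.41 (SE 0.30, edgeR adjusted p = 1.79e-04) and Prdx4, the peroxiredoxin of the endoplasmic reticulum, by -0.72 (SE 0.24, edgeR adjusted p = 0.0111). Gstm1 was the only one of the 3 mu-class members tested in both tissues to pass. Prdx1 (0.39, edgeR adjusted p = 0.0521), Prdx6, Gstm4, Gstm7 and Gpx8 did not pass.

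**Figure D2:**
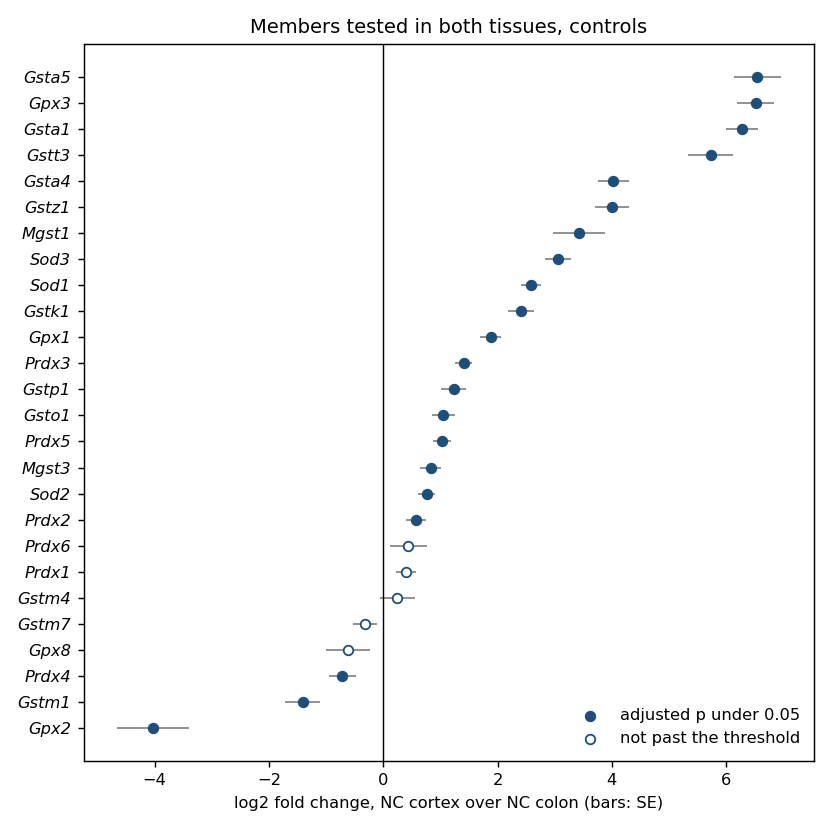
Points give the log2 fold change of NC cortex over NC colon for the 26 members tested in both tissues, bars the SE. Filled points passed the threshold of 0.05; the 18 to the right run up to 6.55 for Gsta5 and the 3 to the left down to -4.03 for Gpx2.

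Some members were counted almost wholly in a single tissue and failed the filter in the other, so they had no test. Mgst2, a microsomal transferase that can make leukotriene C4, had 2 counts summed over the NC cortex libraries and 373 over the NC colon libraries. Its colon level was 228 times its cortex level, with a 95% counting interval from 62.5 to 1890. Gsta2 went the other way, with 828 counts in the NC cortex, 348 of them in replicate 3, and 5 in the NC colon. Its ratio was 136 (57.9 to 419). Gsta3 had 100 and 2 counts, a ratio of 41.0 (11.1 to 343), and Gstt1 had 844 and 50 counts, a ratio of 13.8 (10.4 to 18.8). Gstm6l had no count in any cortex library and 34 counts in the NC colon, which put it at least 13.8-fold higher in the colon, taking 3 counts over the group as the limit.

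In the cortex under high salt, Gsta6 and Gsta2 passed the test in opposite directions, and no other member passed. They made 2 of 31 members tested (6.45%), against 11.0% of all 7524 genes tested; the background was 7.35% for higher and 3.69% for lower. The members' share was thus no larger than that of all genes. The median log2 fold change, HS over NC, was 0.04 over the members and -0.01 over all genes.

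Gsta6, an alpha-class transferase, had 64.3, 96.1, 77.1 and 64.4 CPM in the HS cortex, against 41.1, 42.5, 25.2, 57.2 and 60.0 CPM in the NC cortex. Every HS library was above every NC library, and Gsta6 was the only tested member without overlap (3.23% of members, against 13.1% of all genes). The level averaged 75.5 ± 15 CPM in HS and 45.2 ± 14 CPM in NC (SD, n = 4 and 5), a log2 fold change of 0.75 (SE 0.22, edgeR adjusted p = 0.0309). CAL libraries overlapped both groups, from 36.2 to 65.3 CPM with a median of 51.9 CPM. The call was lost in 5 of the 15 fits that left out a library: without NC replicate 1 (0.72, adjusted p = 0.0577), 2 (0.72, 0.0526) or 3 (0.62, 0.0714) and without HS replicate 1 (0.80, 0.0503) or 2 (0.60, 0.148), all by edgeR.

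Gsta2 had 129, 59.5, 123 and 118 CPM in the HS cortex, against 115, 168, 627, 187 and 177 CPM in the NC cortex. The groups overlapped, and NC replicate 3 was far above every other cortex library, of which the highest was a CAL library at 194 CPM. The log2 fold change was -1.25 (SE 0.38, edgeR adjusted p = 0.0350). Without NC replicate 3 it was -0.61 and did not pass (edgeR adjusted p = 0.1498). It also did not pass without HS replicate 1 (-1.37, 0.0628), 2 (-1.02, 0.144), 3 (-1.31, 0.0520) or 4 (-1.32, 0.0712) by edgeR, nor by DESeq2 (adjusted p = 0.0745) or voom with library weights (0.0571). Gsta2 and its neighbours of the alpha class are close copies, and how reads matching several genes were counted is not given in the sources used here, so the split between them is uncertain.

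Gpx3 did not differ beyond its spread. It had 57000, 49200, 45100 and 52500 CPM in the HS cortex, against 48200, 61800, 40000, 51400 and 64100 CPM in the NC cortex. The groups overlapped throughout, with a log2 fold change of -0.06 and an approximate 95% interval from -0.35 to 0.23 (edgeR adjusted p = 0.828). Its sign changed without NC replicate 2 (0.0017) or 5 (0.022).

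The members next in order of p did not pass. Gsto1, a transferase that also reduces dehydroascorbate, had a log2 fold change of 0.36 (SE 0.13, edgeR adjusted p = 0.0689). Its groups overlapped, with 552, 597, 564 and 492 CPM in HS, against 347, 524, 362, 432 and 467 CPM in NC. It passed by voom (adjusted p = 0.0356) and, by edgeR, without NC replicate 2 (adjusted p = 0.0273). Gstp1, the pi-class transferase, had 964, 890, 1300 and 815 CPM in HS, against 1860, 1080, 1560, 1320 and 1410 CPM in NC. Most HS libraries were below all controls, but replicate 3 was not, and the log2 fold change was -0.55 (SE 0.20, edgeR adjusted p = 0.0776). It passed by voom (adjusted p = 0.0311), with no filter on low counts (0.0183) and, by edgeR, without NC replicate 2 (0.0426), HS replicate 3 (0.0439) or CAL replicate 1 (0.0478) or 6 (0.0380). Cytosolic Prdx1 had 0.34 (SE 0.13, edgeR adjusted p = 0.0956) and passed without HS replicate 4 (0.46, edgeR adjusted p = 0.0414). Prdx2, the abundant peroxiredoxin of red cells, had -0.27 (SE 0.13, edgeR adjusted p = 0.164). Red cell transcripts moved with these groups: the 7 erythrocyte markers summed to between 1000 and 1800 CPM in HS, and between 3890 and 19800 CPM in NC, and 6 of the 7 were lower in HS, none at 0. The summed proximal tubule markers ran from 8430 to 10200 CPM in HS and from 9070 to 11800 CPM in NC, and none of the 8 passed. Summed distal tubule markers ran from 998 to 1660 CPM in HS and from 523 to 730 CPM in NC, without overlap. Endothelium markers ran from 107 to 131 CPM in HS and from 134 to 169 CPM in NC. The part of any of these lists in the values of the members was not tested.

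**Figure D3:**
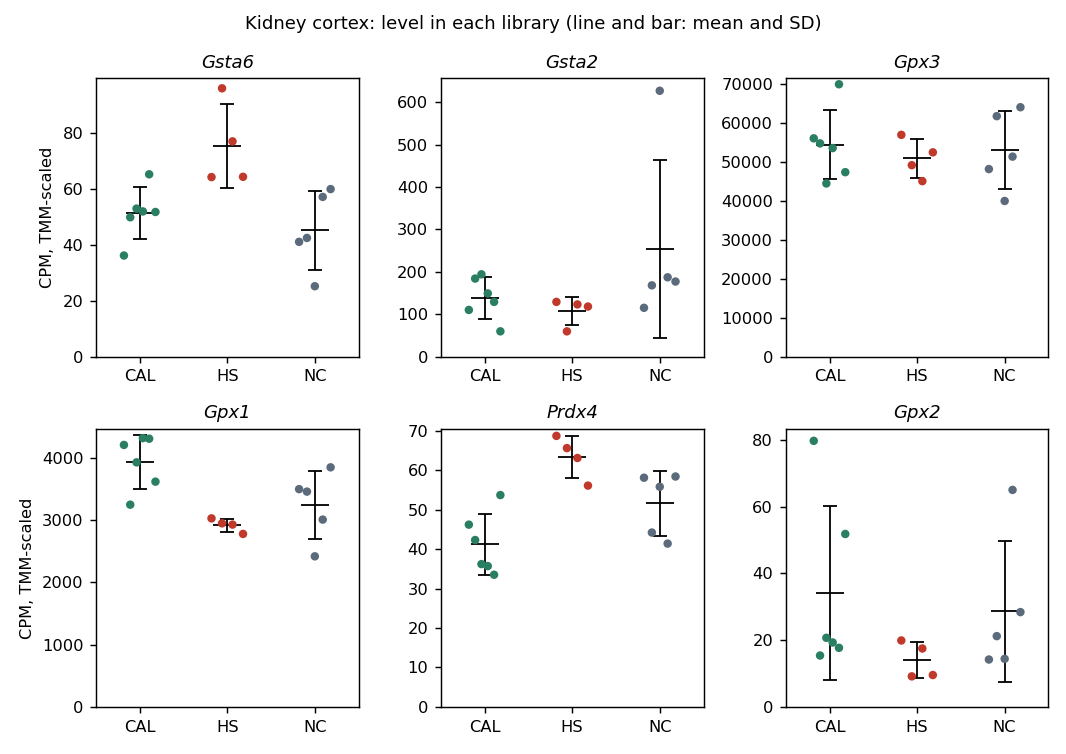
Points give the level of 6 members in each kidney cortex library in TMM-scaled CPM, by group, with the mean and SD as a line and bars. Gsta6 is higher in all 4 HS libraries than in any NC library, the Gsta2 mean in NC is pulled up by 1 library at 627 CPM, and Gpx3 overlaps across all groups.

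Related genes were also listed, among them enzymes that make, recycle and supply glutathione and thioredoxin, and others such as catalase and Scly. Of the 58 genes listed, 45 were tested in the cortex and 6 passed between HS and NC, 3 higher and 3 lower. That was 13.3%, near the 11.0% of all genes. Idh1, which makes cytosolic NADPH, rose by 0.66 (SE 0.15, edgeR adjusted p = 0.00722), catalase (Cat) by 0.41 (SE 0.12, edgeR adjusted p = 0.0281) and Glrx3 by 0.44 (SE 0.13, edgeR adjusted p = 0.0309). Ggt1, the brush-border enzyme that starts glutathione breakdown, fell by 0.55 (SE 0.17, edgeR adjusted p = 0.0367), and the 5-oxoprolinase Oplah fell by 0.56 (SE 0.15, edgeR adjusted p = 0.0197). Scly, which frees selenium from selenocysteine, fell by 0.42 (SE 0.12, edgeR adjusted p = 0.0303). Gpx1, Gpx2, Gpx3 and Gpx4 are selenoproteins, and none of them passed. Between the tissues, 34 of the 41 genes of these lists tested in both passed (82.9%, against 52.5% of all genes), 26 of them higher in the cortex and 8 lower (25.2% and 27.3% of all genes).

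Calcitriol with high salt was then compared with high salt alone in the cortex. None of the 31 members passed by edgeR, against 0.758% of all genes (0.266% higher and 0.492% lower). At an unadjusted edgeR p under 0.05 there were 7 of the 31 members and 1219 of 7524 genes. DESeq2 called 1 member and voom 0. Groups did not overlap for 2 members, Gpx1 and Prdx4 (6.45%, against 4.17% of all genes). The comparison shares its HS libraries with the one above.

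Gpx1, the widespread cytosolic peroxidase, ran from 3250 to 4320 CPM in the 6 CAL libraries with a median of 4070 CPM, against 3030, 2950, 2930 and 2780 CPM in the 4 HS libraries. All CAL libraries were above all HS libraries, and NC libraries, from 2420 to 3850 CPM, overlapped both. The log2 fold change, CAL over HS, was 0.43 (SE 0.12, edgeR adjusted p = 0.0943), and it passed by DESeq2 (adjusted p = 0.0192). Erythrocyte markers summed to between 3660 and 6830 CPM in CAL, against 1000 to 1800 CPM in HS, and 4 of the 7 were higher in CAL. Red cells also hold Gpx1, and their part in this value was not tested.

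Prdx4 ran from 33.5 to 53.7 CPM in CAL with a median of 39.2 CPM, against 68.7, 65.6, 63.1 and 56.1 CPM in HS. All CAL libraries were lower, with a log2 fold change of -0.60 (SE 0.18, edgeR adjusted p = 0.112). Gpx2 ran from 15.4 to 79.7 CPM in CAL with a median of 20.0 CPM, against 19.9, 9.15, 17.5 and 9.55 CPM in HS. The groups overlapped, with a log2 fold change of 1.56 (SE 0.53, edgeR adjusted p = 0.151), and the gene passed only where no filter on low counts was used (adjusted p = 0.0177), while DESeq2 gave it no adjusted p. Gpx3 ran from 44500 to 70000 CPM in CAL with a median of 54200 CPM and differed from HS by 0.10 (approximate 95% interval -0.19 to 0.38, edgeR adjusted p = 0.789). Gsta2 ran from 59.5 to 194 CPM in CAL with a median of 139 CPM, overlapping HS, with 0.38 (SE 0.38, edgeR adjusted p = 0.667).

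**Figure D4:**
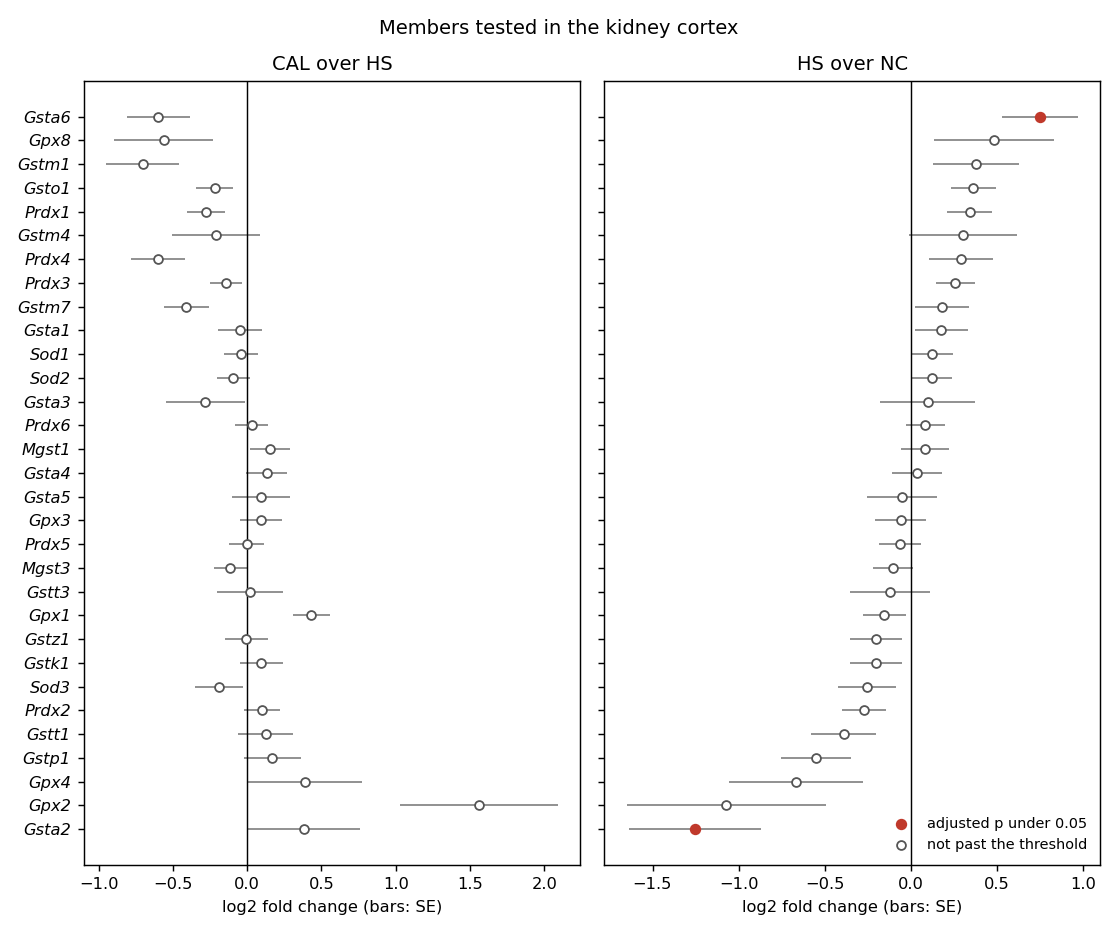
Points give log2 fold changes of the 31 members tested in the cortex, CAL over HS on the left and HS over NC on the right, with SE bars and the members in the order of the right panel. Gsta6 and Gsta2 are the filled points on the right, and no point on the left passed the threshold of 0.05. The panels share the HS libraries.

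Between CAL and NC in the cortex no member passed (edgeR; 5 of 31 with an unadjusted p under 0.05, 0 by DESeq2 and 0 by voom), and no gene of the table did (0%; 892 of 7524 at an unadjusted p under 0.05, 28 by DESeq2 and 0 by voom). Every member's groups overlapped, as they did for all but 1.06% of genes. Sod3, the extracellular dismutase, ran from 257 to 434 CPM in CAL with a median of 313 CPM, against 376, 528, 475, 522 and 339 CPM in NC. The groups overlapped, with a log2 fold change of -0.45 (SE 0.15, edgeR adjusted p = 0.236). Gsta2 differed by -0.87 (SE 0.32, edgeR adjusted p = 0.287), and by -0.23 without NC replicate 3 (edgeR adjusted p = 0.757). Gpx1 differed by 0.28 (SE 0.11, edgeR adjusted p = 0.333). Gpx3 differed by 0.04 (edgeR adjusted p = 0.944), a sign that turned without NC replicate 3 (-0.050) or CAL replicate 5 (-0.049).

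In the colon no member passed between HS and NC (edgeR; 4 of 27 with an unadjusted p under 0.05, 0 by DESeq2 and 0 by voom). No gene of the table did either (0%; 614 of 7217 at an unadjusted p under 0.05, 15 by DESeq2 and 0 by voom). No member had groups without overlap, against 1.40% of genes. The members with the smallest p were Mgst1, Gsta5 and Gpx2, and each was highest in HS replicate 3. Without that library none of 30 members tested had an unadjusted p under 0.05.

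Mgst1 had 43.1, 58.4, 511, 29.8 and 43.1 CPM in the HS colon, against 31.4, 48.7, 22.1, 25 and 31.7 CPM in the NC colon. Replicate 3 held the 511 CPM, and the other HS libraries overlapped the controls. The log2 fold change of 2.06 (SE 0.61, edgeR adjusted p = 0.330) became 0.44 (SE 0.33, edgeR adjusted p = 0.869) without replicate 3. Gpx2 had 856, 653, 4490, 315 and 225 CPM in the HS colon, against 806, 319, 444, 358 and 513 CPM in the NC colon. Its log2 fold change of 1.42 (SE 0.61, edgeR adjusted p = 0.544) became 0.08 (SE 0.41) without replicate 3, which again held the highest value. Gsta5 had 10.2, 44.9, 74.6, 12.4 and 13.2 CPM in HS, against 12.9, 4.71, 8.27, 14.5 and 15 CPM in NC, with 1.41 (SE 0.58, edgeR adjusted p = 0.524) and 0.81 (SE 0.56) without it. DESeq2 gave Mgst1 and Gsta5 no adjusted p here. Gsto1, the other member with an unadjusted p under 0.05, had 0.56 (SE 0.26, edgeR adjusted p = 0.5683), and 0.55 (SE 0.27) without HS replicate 3.

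HS replicate 3 was also an extreme for members not tested in the colon. It held 12 of the 25 colon counts of Gsta2, 11 of the 18 of Gsta3 and 16 of the 93 of Gsta6. Gpx3 was lowest there, at 194 CPM, against 400 to 914 CPM in the other 15 colon libraries, and so were Prdx6 (119 CPM, against 171 to 667 CPM), Sod3 (30.4 CPM, against 33.1 to 100 CPM), Gstm7 and Gpx8. In all, 4 of the 27 tested members had their highest value in this library and 5 their lowest, while 15.2% of all tested genes were highest there and 14.8% lowest. HS replicate 4 was the highest for 15.2% and the lowest for 15.1% of genes, and for 2 members each way. By members, other libraries were more often extreme. HS replicate 2 was the highest for 7 of the 27 members (7.76% of genes), and CAL replicate 1 the lowest for 7 (5.99% of genes).

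**Figure D5:**
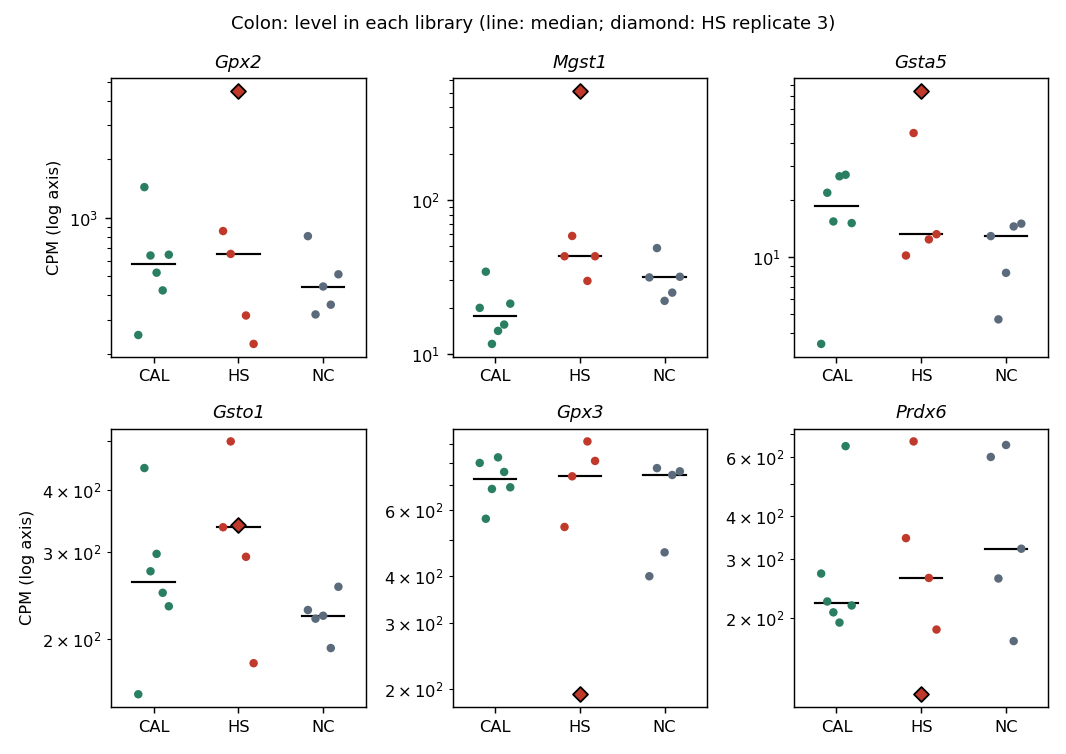
Points give the level of 6 members in each colon library in TMM-scaled CPM on log axes, by group, with the median as a line and HS replicate 3 as a diamond. The diamond is the highest point for Gpx2, Mgst1 and Gsta5 and the lowest for Gpx3 and Prdx6.

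Between CAL and HS in the colon no member passed by edgeR, DESeq2 or voom, against 0.0139% of all genes by edgeR. At an unadjusted edgeR p under 0.05 there were 1 of 27 members and 758 of 7217 genes. No member had groups without overlap, against 0.527% of genes. Mgst1 ran from 11.6 to 34.2 CPM in CAL with a median of 17.7 CPM, against 43.1, 58.4, 511, 29.8 and 43.1 CPM in HS. A single CAL library, replicate 2 at 34.2 CPM, reached above the lowest HS library. The log2 fold change was -2.81 (SE 0.62, edgeR adjusted p = 0.165), and -1.18 (SE 0.33, edgeR adjusted p = 0.491) without HS replicate 3. It passed without HS replicate 1 (-3.04, edgeR adjusted p = 0.0409) and with no filter on low counts (-2.72, adjusted p = 0.00140), and DESeq2 gave it no adjusted p.

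Gstm4 differed by -0.63 (SE 0.31, edgeR adjusted p = 0.494), with 12.1 to 34.2 CPM in CAL (median 24) against 26.1, 29.2, 38.7, 32.3 and 53.0 CPM in HS. Gpx2 ran from 250 to 1440 CPM in CAL with a median of 582 CPM. Its log2 fold change of -1.004 (SE 0.57, edgeR adjusted p = 0.565) turned to 0.34 without HS replicate 3. Gpx3 ran from 569 to 829 CPM in CAL with a median of 724 CPM and differed from HS by 0.18 (SE 0.29, edgeR adjusted p = 0.869), and by -0.047 without HS replicate 3. Between HS and NC it differed by 0.022 (SE 0.30, edgeR adjusted p = 0.991).

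Between CAL and NC in the colon no member had an unadjusted p under 0.05 (edgeR; 0 of 27 passed, as by DESeq2 and voom; background 0%, with 278 of 7217 genes at an unadjusted p under 0.05). Without HS replicate 3, which enters the shared estimate of spread, 1 of 30 did. It was Mgst1, lower in CAL (-0.74, SE 0.32, edgeR adjusted p = 0.999). With all libraries, the smallest p were those of Gstz1 (-0.94, SE 0.56), Gsta5 (0.67, SE 0.58) and Gsto1 (0.29, SE 0.25), each with an edgeR adjusted p of 0.9999. Gstz1 had 0 to 28 CPM in CAL and 9.22 to 27.6 CPM in NC. No member had groups without overlap, against 0.679% of genes. Gpx3 differed by 0.20 (SE 0.29), with CAL libraries from 569 to 829 CPM and NC libraries from 400 to 776 CPM.

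Whether the tissues responded differently was tested by an interaction over the 26 members tested in both. For high salt, cortex effect minus colon effect, no member passed by edgeR, DESeq2 or voom, against 0.250% of all genes by edgeR. At an unadjusted edgeR p under 0.05 there were 5 of the 26 members and 932 of 5992 genes. Mgst1 (-1.96, SE 0.63) and Gstp1 (-0.99, SE 0.32) had the smallest p, each with an edgeR adjusted p of 0.143, and Mgst1 became -0.37 without HS colon replicate 3. For calcitriol with high salt against high salt alone, no member passed by edgeR, DESeq2 or voom, against 0% of all genes by edgeR. At an unadjusted edgeR p under 0.05 there were 2 of the 26 members and 644 of 5992 genes. Mgst1 was nearest with 2.93 (SE 0.64, edgeR adjusted p = 0.0830). It passed when HS colon replicate 1 (3.19, edgeR adjusted p = 0.0143), 2 (3.14, 0.0399) or 4 (3.20, 0.0469) was left out, and was 1.35 (SE 0.31, edgeR adjusted p = 0.123) without HS colon replicate 3. Gsta2 and Gsta6 failed the filter in the colon and had no such test.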

How the data were processed

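Per the labels' protocols, RNA came from TRIzol extracts of both tissues, and libraries were built with a transposase-based kit, which keeps no record of strand. Per the submitters' processing notes, the tools were FastQC 0.11.9, Trimmomatic 0.39, HISAT2 2.1.0 and featureCounts 1.6.5, with genome build Rnor_6.0. The annotation, the strand setting and the treatment of reads matching several genes are not given in the sources used here, so overlapping genes and close copies are uncertain. RefSeq names 25 pseudogenes of these families. The deposited values are raw counts of reads per gene for 31 libraries, not normalized by the authors. No 2 libraries held identical values.

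Tests used the quasi-likelihood method of edgeR 4.0.16 (R 4.3.3) on the deposited counts. Libraries were scaled by TMM, a trimmed mean of ratios between libraries, and filterByExpr removed weakly counted genes (at least 10 counts in enough libraries, 15 in total). Each tissue was fitted to its 3 groups. The tissue comparison and the interactions were fitted to all 6 groups over genes passing the filter in both tissues. Adjusted p are Benjamini-Hochberg values over all genes tested, with a threshold of 0.05. The SE was taken from the quasi-likelihood F. The 95% intervals of log2 fold changes are approximate, set as a fixed multiple of this SE on either side. Levels are TMM-scaled CPM over tested genes, computed per tissue, and marker sums are plain CPM. Counting ratios have exact 95% intervals that cover counting error only. The tests were tried on simulated counts with known changes.

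Alternatives were testing by DESeq2 1.42.0, edgeR scaled by DESeq2 size factors, omitting the filter, requiring 1 CPM in at least 4 libraries, voom with library weights (limma 3.58.1), thinning to the shallowest library, a block for replicate number, and omitting in turn every library, or colon HS replicates 3 and 4 together. The labels name no batch. The members, lists and tests were chosen with earlier results of these data known. The rule for naming gave in full each member past the threshold within a tissue or in an interaction, with Gpx3 and, in the cortex, Gsta2 always. Where none passed it gave the 3 with the smallest p, and between tissues the 6 with the largest fold each way. Some members were also given in comparisons where the rule did not name them. Among these were Gsto1, Gstp1, Prdx1 and Prdx2 in the cortex under high salt.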

Additional observations from a re-analysis of the deposited data

Results flagged for a closer look

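In groups of 4 to 10 libraries, a library was singled out where its gap to the nearest other, over the range of the group, was above the 95% critical value of Dixon's test. This was checked for 16 members in 90 combinations of member and group, and 10 were singled out. The 16 were the members given by the rule for naming, so they were picked partly by these same values. The 10 are therefore not compared with the 1 in 20 that chance would give in normally spread values. In colon HS replicate 3, Gpx2 was at 4490 CPM and Mgst1 at 511 CPM. In the cortex, Gsta2 was at 627 CPM in NC replicate 3 and at 59.5 CPM in HS replicate 2, where the other HS libraries had 118 to 129 CPM. Gpx2 was at 65.0 CPM in NC cortex replicate 4 and at 1440 CPM in CAL colon replicate 2. Gstz1 was at 183 CPM in NC cortex replicate 2, against 252 to 276 CPM in the other controls. Sod3 was at 245 CPM in HS cortex replicate 3, against 405 to 428 CPM, and at 33.1 CPM in NC colon replicate 3, against 59.0 to 65.1 CPM. Prdx4 was at 51.3 CPM in NC colon replicate 4, against 93.8 to 108 CPM.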

How the results depend on the processing

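Between HS and NC in the cortex, 2 members were called as given, 1 by DESeq2, 1 after thinning to the shallowest library, 5 with the replicate block (Gsta6, Gsta2, Gstp1, Gsto1 and Prdx1) and 0 to 3 with a library left out. The replicate numbers were not taken to pair the libraries, which would have needed every same-numbered pair to correlate above 0.1 in its deviations from the group means. This held for 1 of 13 pairs in the cortex, 9 of 15 in the colon (median 0.145) and 5 of 15 between the tissues (median 0.0499). Other treatment comparisons gained 1 member at most: Gpx1 by DESeq2 and Gpx2 with no filter (CAL against HS, cortex), Gsta2 with no filter (CAL against NC, cortex), and Mgst1 with no filter in the colon (HS against NC and CAL against HS). Leaving out a library gave 0 to 1 member, Mgst1, for CAL against HS in the colon and for each interaction, and 0 in the other treatment comparisons. Between the tissues, members called ranged from 15 after thinning to 29 with no filter, and from 20 to 22 with a library left out, against 21 as given. Counts over all genes moved more. HS against NC in the cortex, 831 as given, had 403 after thinning and 324 to 961 with a library left out, with 553 without NC replicate 3 and 393, 324 and 469 without HS replicates 1, 2 and 4. CAL against HS in the cortex, 57 as given, had 105 by DESeq2, 128 with no filter, 25 after thinning, 22 with the block and 2 to 80 with a library left out, lowest without HS replicate 2. CAL against NC in the cortex, 0 as given, had 28 by DESeq2, 83 with no filter, 7 at 1 CPM, 42 with the block and 0 to 40, highest without CAL replicate 6. In the colon, HS against NC (0) had 15 by DESeq2, 59 with no filter, 1 without HS replicates 3 and 4 and 0 to 1. CAL against HS (1) had 11 by DESeq2, 66 with no filter, 5 at 1 CPM, 0 by voom, with the block or without HS replicates 3 and 4, and 0 to 14, highest without HS replicate 1. CAL against NC (0) had 1 with no filter, 1 by voom and 0 with any library left out. The high-salt interaction (15) had 52 by DESeq2, 0 with no filter, 0 at 1 CPM, 1 after thinning, 64 with the block, 0 without HS colon replicates 3 and 4 and 0 to 138, highest without HS colon replicate 1. The calcitriol interaction (0) had 9 by DESeq2 and 0 to 42, highest without the same library. The tissue comparison (3144 of 5992 genes) had 5971 with no filter and 5429 at 1 CPM, both of which test more genes, 1823 after thinning and 2909 to 3349. Signs turned for Gpx3 between HS and NC. In the cortex this was with the block (0.034) and without NC replicate 2 (0.0017) or 5 (0.022), within -0.14 to 0.022. In the colon it was with no filter (-0.012), at 1 CPM (-0.019), with the block (-0.046) and without NC replicate 1 (-0.11) or 3 (-0.077) or HS replicate 2 (-0.042), 4 (-0.14) or 5 (-0.081), within -0.14 to 0.25. They also turned for Gpx3 between CAL and NC in the cortex without NC replicate 3 (-0.050) or CAL replicate 5 (-0.049), within -0.050 to 0.12, and between CAL and HS in the colon without HS replicate 3 (-0.047), within -0.047 to 0.34. Gpx2 between CAL and HS in the colon turned by voom (0.26), without HS replicate 3 (0.34, within -1.40 to 0.34) or without HS replicates 3 and 4 (0.16). The cause was not tested. Members at a few counts per library, such as Gpx4, and the Gsta members in the colon carry a wide counting error. RefSeq names 4 pseudogenes of Gpx4, and why its counts were low was not tested.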

Other observations

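The counts of Gsta2 and Gsta5, which RefSeq (GRCr8) places near each other on chromosome 8, moved unequally in the cortex. Gsta2 had 6.04 to 17.6% as many counts as Gsta5 in the CAL libraries, 9.26 to 14.9% in the HS libraries and 16.2 to 40.7% in the NC libraries. NC replicate 3 held the highest value, and the other NC libraries reached 23.5%. This pair was chosen after its values were seen, and the symbols of both are also synonyms of other genes in RefSeq.

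Gstm5, a mu-class transferase, was counted in 6 of 16 colon libraries and in no cortex library. It had 23, 7, 0, 9 and 0 counts in HS replicates 1 to 5 and 13 counts in NC replicate 4, with 0 in the other NC libraries. The CAL libraries had at most 2 counts. It failed the filter on low counts and was not tested.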
